A study of Homo sapiens with 3 samples.

Results

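The genes described here encode ZNF148 and 5 other zinc finger proteins that recognise GC boxes or G-rich DNA, namely ZNF281, SP1, SP3, VEZF1 and MAZ. The question was where ZNF148 and p63 were found on chromatin at these 6 genes. A window was laid around each gene span in the genome build hg19, reaching 50 kb beyond either end. Every summit inside was taken from both peak lists, a summit being the point of highest enrichment in a peak. The windows covered 871 kb in all and held 19 of 21708 summits in the p63 list and 38 of 39462 in the ZNF148 list. Summits of 1 interval were then counted as 1 peak, which left 15 of 21520 p63 peaks and 35 of 37883 ZNF148 peaks. Summits were taken by position, so neither height nor overlap entered that step. The genes themselves were chosen with earlier results of these data known.

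The data come from chromatin immunoprecipitation and sequencing (ChIP-seq) in FaDu, an established pharyngeal squamous carcinoma line, kept untreated. One antibody recognised ΔNp63α, the p63 form that lacks the N-terminal transactivation domain, and the other recognised ZNF148. Each antibody is represented by 1 library and 1 peak list, while input DNA made without antibody is the third sample and enters through no list of its own. Per the labels' protocols the DNA came from 3 independent ChIP assays, whose variation is not visible in a single list, so no value below carries a replicate error and no test was possible. Read depth is unknown from the lists, RNA was not measured, and the squamous identity of the cells was therefore not checked against markers. All cells are of a single line, so nothing here separates that line from squamous carcinoma in general.

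GC boxes are short GC-rich elements found in many promoters, above all in those of broadly expressed genes that lack a TATA box. SP1 is the best known activator that binds them, and SP3 is its close relative with the same DNA preference, able to activate or repress. ZNF148, also called ZBP-89, binds similar GC-rich sites and can compete there with SP1, and ZNF281, also called ZBP-99, is its nearest relative with very similar fingers. MAZ, the MYC-associated zinc finger protein, recognises GGGAGGG, and VEZF1, known from blood vessel development, binds runs of G. Factors of this kind can therefore bind in each other's promoters and in their own.

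The ZNF148 list had a peak summit within 1 kb of the 5′ end of 5 of the 6 genes, including the ZNF148 gene itself, and the p63 list had none. The share of all genes with a peak there was computed for neither list, and the ZNF148 list is the longer one. These counts therefore do not set the 6 genes apart from other genes. The ZNF281 peak is weak, and without it, as when a −log10 q of at least 10 was required or both lists had equal length, 4 of 6 genes had such a peak. The span ends are given to 1 kb, so distances of summits from a 5′ end are good to about that length, and the strand that sets the 5′ end was read from RefSeq. The 5 genes with such a peak were ZNF148, ZNF281, SP1, SP3 and MAZ. Their promoters are printed below because a ZNF148 summit lay within 1 kb of the 5′ end of the gene span. Each runs 5′ to 3′ on the strand of the gene, from 250 bases before the most upstream RefSeq start to 50 bases after it. Capitals mark every GC box, GGGCGG, and every MAZ core, GGGAGGG, on either strand. The sequences and positions are those of RefSeq on GRCh38.p14, a later build than that of the peaks, and were not laid over the peak positions.
ZNF148 promoter, chr3:125374660-125374959, minus strand: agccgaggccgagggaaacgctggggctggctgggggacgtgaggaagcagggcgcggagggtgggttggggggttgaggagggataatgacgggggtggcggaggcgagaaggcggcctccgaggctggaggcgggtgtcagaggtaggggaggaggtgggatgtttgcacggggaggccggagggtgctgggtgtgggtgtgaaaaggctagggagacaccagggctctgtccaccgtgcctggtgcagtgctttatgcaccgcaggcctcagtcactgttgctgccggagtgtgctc
ZNF281 promoter, chr1:200409987-200410286, minus strand: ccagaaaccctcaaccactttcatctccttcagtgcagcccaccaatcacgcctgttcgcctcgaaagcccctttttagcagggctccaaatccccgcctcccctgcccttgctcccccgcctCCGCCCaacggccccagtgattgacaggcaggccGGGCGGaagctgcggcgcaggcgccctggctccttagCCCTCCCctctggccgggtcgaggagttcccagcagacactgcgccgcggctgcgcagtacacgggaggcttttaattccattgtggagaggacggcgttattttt
SP1 promoter, chr12:53379926-53380225, plus strand: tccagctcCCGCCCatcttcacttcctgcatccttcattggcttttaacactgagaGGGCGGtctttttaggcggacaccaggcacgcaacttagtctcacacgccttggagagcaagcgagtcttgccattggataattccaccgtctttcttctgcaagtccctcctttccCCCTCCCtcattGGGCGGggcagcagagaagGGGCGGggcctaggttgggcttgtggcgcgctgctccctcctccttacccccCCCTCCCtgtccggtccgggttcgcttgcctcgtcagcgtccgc
SP3 promoter, chr2:173965653-173965952, minus strand: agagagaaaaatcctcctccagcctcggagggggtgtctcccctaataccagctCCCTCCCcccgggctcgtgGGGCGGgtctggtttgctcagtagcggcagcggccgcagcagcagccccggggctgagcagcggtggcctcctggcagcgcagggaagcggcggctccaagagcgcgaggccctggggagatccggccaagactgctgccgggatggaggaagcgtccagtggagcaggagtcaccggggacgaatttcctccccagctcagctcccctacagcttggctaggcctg
MAZ promoter, chr16:29806279-29806578, plus strand: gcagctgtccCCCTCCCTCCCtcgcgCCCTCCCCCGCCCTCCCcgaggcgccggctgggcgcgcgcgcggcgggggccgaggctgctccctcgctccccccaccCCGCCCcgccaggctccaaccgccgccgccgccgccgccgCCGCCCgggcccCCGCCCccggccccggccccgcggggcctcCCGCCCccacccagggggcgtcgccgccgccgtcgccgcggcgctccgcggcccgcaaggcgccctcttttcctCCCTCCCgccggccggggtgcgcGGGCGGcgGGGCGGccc

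The printed promoters differ in how much of this vocabulary they hold. The MAZ promoter had 7 GC boxes and 5 MAZ cores, of which 2 were also the longer ZNF148 and ZNF281 core GGGGAGGG, and 88% of its bases were G or C. SP1 had 4 GC boxes and 2 MAZ cores, and ZNF281 had 2 GC boxes and 1 GGGGAGGG. SP3 had 1 of each. At the second RefSeq start of SP1, downstream of the one printed, the window had 10 GC boxes, more than that of MAZ, and 2 MAZ cores, of which 1 was GGGGAGGG. The 2 other SP3 starts had 2 GC boxes each. The ZNF148 promoter held neither element, nor did the window at its other RefSeq start, but it had 6 copies of the GT box CACCC. The VEZF1 promoter, at whose 5′ end no ZNF148 peak lay, had 3 GC boxes and no MAZ core, with 5 overlapping or separate matches to a run of 7 G. No match to the p53 family decamer, the element that p63 binds in paired copies, was found in any of the 6 (5.90% of all promoters had one).

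A GC box was present in 5 of the 6 promoters, against 58.3% of 15842 promoters of protein-coding genes, counting 1 promoter of 300 bases per gene. The MAZ core was present in 4 of 6, against 30.1%, GGGGAGGG in 3 of 6, against 15.7%, the GT box in 4 of 6, against 62.9%, and the run of 7 G in 2 of 6, against 5.80%. GGGGAGGG contains GGGAGGG, so these counts are not separate. The G and C content of the 6 promoters ranged from 60.7% to 88%, with a median of 67.5% against 62.7% over all promoters. Of 12 other factors of this kind that were listed, 11 had a promoter in the table, PATZ1 being the missing one. A GC box was found in 9 of these 11 (SP2, SP4, KLF4, KLF6, KLF13, KLF16, WT1, ZBTB7A and ZNF740, but not EGR1 or KLF5) and a MAZ core in 5. The peaks at these 11 genes were not described, since their hg19 positions were not used here. A match is a string of letters and not a bound site.

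At the ZNF148 gene, the 5′ end carried the stronger of the 2 ZNF148 peaks in its window. This peak, chr3:125093671-125094205, had a fold enrichment of 27.9, meaning the signal at the summit over the local background. Its q value, the caller's p corrected for many tests, stood at 60.9 as −log10 and placed it in the top 12.1% of its list. The antibody recovered DNA at the start of the gene that encodes its own target. The other ZNF148 peak, chr3:124930826-124931199, lay beyond the 3′ end with a fold of 21.9. A window of this length, 249 kb, had at least 2 ZNF148 peaks in 54.8% of consecutive tiles over the genome, so their number was ordinary. Tiles here and below include gene-poor stretches, and windows around other genes were not compared.

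The p63 list had 4 peaks in the ZNF148 window, a number reached by 15.6% of tiles, and none of them was at the 5′ end or overlapped a ZNF148 peak. The nearest, chr3:125032162-125032431, had a fold of 8.27 and lay inside the gene, 61.7 kb from its start. The most significant, chr3:124913453-124913707, had a fold of 32.7 and lay beyond the 3′ end, 17.4 kb from the nearest ZNF148 summit. The weakest, chr3:124906452-124906736, with a fold of 6.30, was next to it. The next protein-coding genes are SNX4 upstream and SLC12A8 downstream, so both peaks lay on the side of SLC12A8.

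The last p63 peak of that window stood apart from the rest of its list by its shape. It spanned chr3:124951216-124952779, from 6.22 to 7.78 kb inside the 3′ end of the ZNF148 span, and at 1564 bp it was the longest of the 21520 p63 peaks. The median length in the list was 236 bp. It had 5 summits, more than any other p63 peak, while 0.846% of the list had several. Their folds were 9.08, 13.1, 15.8, 13.2 and 13.8 in order of position, so all were of similar height, and neighbouring summits were 141 to 478 bp apart. The ZNF148 list had no peak there, the nearest ZNF148 summit being 21.1 kb away. Exon positions in hg19 were not used here, so whether this interval or the peak at 125032162 covers an exon was not tested. Reads from ZNF148 cDNA or a plasmid in the p63 library would fall on exons, and without exon positions such reads cannot be told apart from p63 on chromatin at these 2 peaks. It was singled out after its values were seen.

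At ZNF281, the peaks of both lists were weak. Its only ZNF148 peak, chr1:200378564-200378736, lay at the 5′ end with a fold of 7.15, in the weaker part of the list (top 76.5%). Among the 5 genes with a ZNF148 peak at the 5′ end it had the lowest fold for the most significant such peak. The p63 list had 3 peaks, with folds of 5.35, 9.48 and 9.80. The first, chr1:200382944-200383104, lay 4.02 kb upstream of the gene, and the others lay beyond its 3′ end, on the side of NR5A2. At least 3 p63 peaks were found in 7.06% of tiles of the same length, 105 kb, and at least 1 ZNF148 peak in 53.2%. With 28.6 p63 peaks per Mb, this window was the densest of the 6 in that list. That rank rests on 3 peaks in a short window, while SP1 and SP3 also had 3 and ZNF148 had 4. The peak upstream of ZNF281 had a −log10 q of 6.52 and would be lost at a limit of 10.

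**Figure D1:**
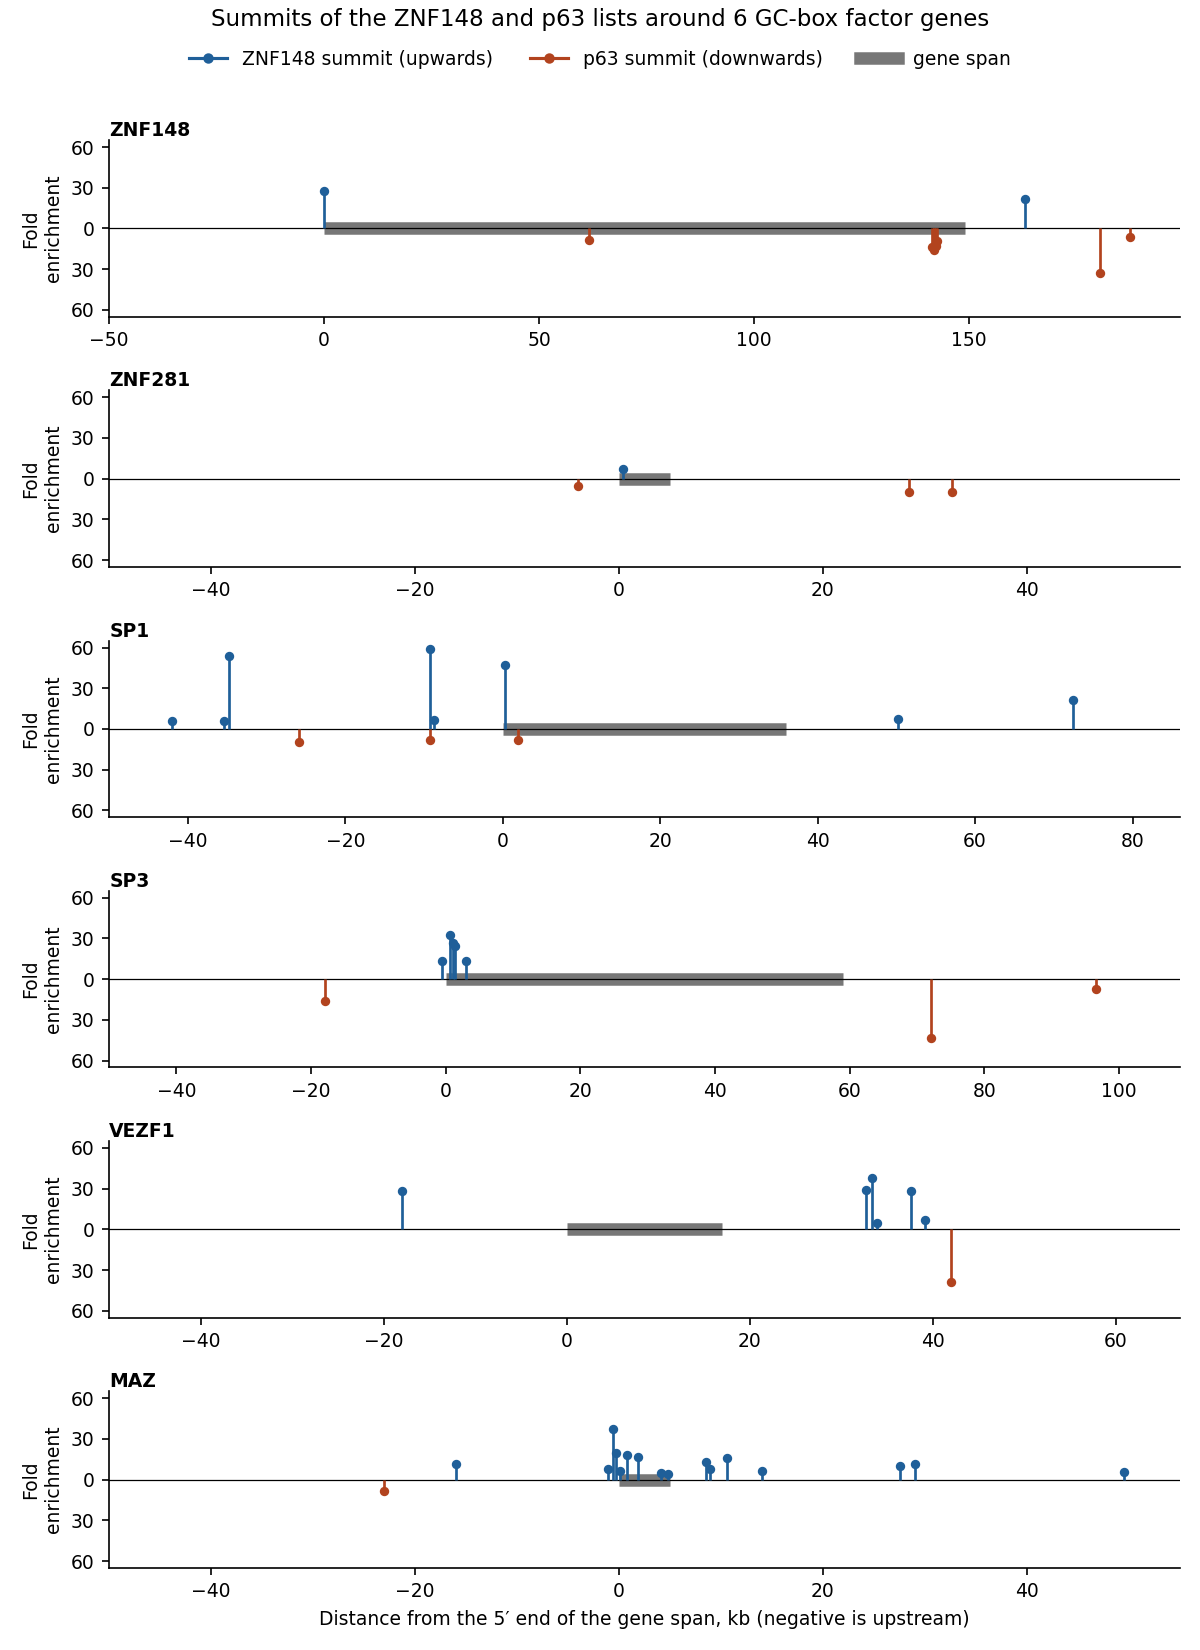
Summits in the 6 gene windows, plotted by distance in kb from the 5′ end of each gene span (grey bar, the scale differs between panels), with the fold enrichment of ZNF148 summits drawn upwards and that of p63 summits downwards on the same scale. ZNF148 summits stand at the start of every gene but VEZF1, and the p63 interval with 5 summits lies near the 3′ end of ZNF148.

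The SP1 window held the strongest ZNF148 peaks of the 6 genes. There were 8 of them, with folds from 5.77 to 59.2, and a tile of 136 kb had as many in 4.29% of cases. The peak at the 5′ end, chr12:53774071-53774642, had a fold of 47.3 and was in the top 3.26% of the list. A still stronger one, chr12:53764601-53764904, lay 9.25 kb upstream with a fold of 59.2 (top 1.48%), and another, chr12:53739015-53739445, lay 34.8 kb upstream with a fold of 53.4 (top 2.43%). The fourth with a fold above 20, chr12:53846191-53846635, had 21.6 and lay beyond the 3′ end, on the side of AMHR2. The other 4 had folds between 5.77 and 7.21. The upstream neighbour is SP7, itself a member of the SP family known for its role in bone formation, and no peak between the 2 genes can be given to either from its position.

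The p63 list had 3 peaks in the SP1 window, with folds of 9.71, 8.39 and 8.06, all below the list's median of 13.2. As many were found in 11% of tiles. One of them made the only overlap between the lists in all 6 windows, although another lay just beyond the 50 kb limit. The p63 peak chr12:53764672-53764851 lay wholly within the ZNF148 peak 9.25 kb upstream of SP1, and their summits were 10 bp apart. The folds there were 8.39 for p63 and 59.2 for ZNF148, so the site was in the top 1.48% of the ZNF148 list and only in the top 81.5% of the p63 list. The ratio of the folds, 7.05, was uncommon: over the 2917 p63 peaks with a ZNF148 summit within 25 bp the median ratio was 0.933 (quartiles 0.768 and 1.18), and 11 of them, or 0.377%, had a ratio as high. Folds of separate libraries also carry their depth and background. The p63 peak nearest to the SP1 start, chr12:53775837-53775988, lay 1.92 kb inside the gene with a fold of 8.06 and did not overlap the ZNF148 peak at the start, whose summit was 1.64 kb away.

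At SP3, all ZNF148 peaks gathered at the start of the gene, and all p63 peaks lay outside the gene. The central ZNF148 interval, chr2:174828474-174829678, was 1205 bp long and had 3 summits with folds of 24.3, 26.6 and 32.7. Intervals with 3 or more summits made up 0.483% of the ZNF148 list, and those with several made up 3.57%. It was flanked by peaks with a fold of 13.1 on either side, chr2:174830498-174830827 just upstream of the span and chr2:174826817-174827083 inside it. RefSeq lists 3 separate starts for SP3, more than for any of the other 5 genes. These starts were not laid over the peaks, so whether any summit lies at one of them was not tested. Tiles of 159 kb held at least 3 ZNF148 peaks in 25.4% of cases and at least 3 p63 peaks in 14.2%. The p63 peaks had folds of 7.56, 16.1 and 43.1. The strongest, chr2:174757839-174758135, was in the top 11.8% of its list and lay beyond the 3′ end, 69.0 kb from the nearest ZNF148 summit. The peak with a fold of 16.1, chr2:174847806-174848100, lay 17.9 kb upstream, between SP3 and OLA1.

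VEZF1 was the exception among the 6 genes, with no ZNF148 peak inside the gene or at its 5′ end. Its window still held 6 ZNF148 peaks, a number reached by 5.79% of tiles of 117 kb. The nearest to the start, chr17:56083866-56084186, had a fold of 28.1 and lay 18.0 kb upstream, on the side of SRSF1, which encodes a splicing factor. The other 5 lay beyond the 3′ end, on the side of CUEDC1, with folds of 37.5, 29.0, 27.9, 6.92 and 4.74. The strongest of them was chr17:56032458-56032825. The only p63 peak, chr17:56023876-56024234, lay on the same side with a fold of 38.9. It was the most significant p63 peak in any of the 6 windows and in the top 9.24% of its list. Its nearest ZNF148 summit was 2.84 kb away. At least 1 p63 peak was found in 49.3% of tiles.

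The MAZ window had the most ZNF148 peaks, 15, of which 3 lay within 1 kb of the 5′ end and 3 more inside the gene. As many were held by 0.545% of tiles of 105 kb, gene-poor stretches included. The most significant, chr16:29817201-29817901, lay just upstream of the start with 2 summits of folds 37.5 and 19.5 (top 7.35%). The other 2 at the start, chr16:29818033-29818183 and chr16:29818682-29819012, had folds of 6.49 and 18.1. Inside the gene the folds were 16.3, 5.20 and 4.38, and the 9 peaks outside it had folds from 5.77 to 12.6 and one of 15.96. The MAZ window thus held many peaks of modest height: its median fold was 10.1, near the 9.83 of the whole list, against 28.0 at VEZF1. The neighbours are KIF22 upstream and PRRT2 downstream, and peaks outside MAZ may belong to these or to genes farther away. The hg19 positions of other genes were not used, so how many of the 7 downstream peaks lie beyond PRRT2 was not determined. The p63 list had a single peak there, chr16:29794882-29795095, with a fold of 8.11, 23.02 kb upstream. At least 1 p63 peak was found in 46% of tiles of that length.

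**Figure D2:**
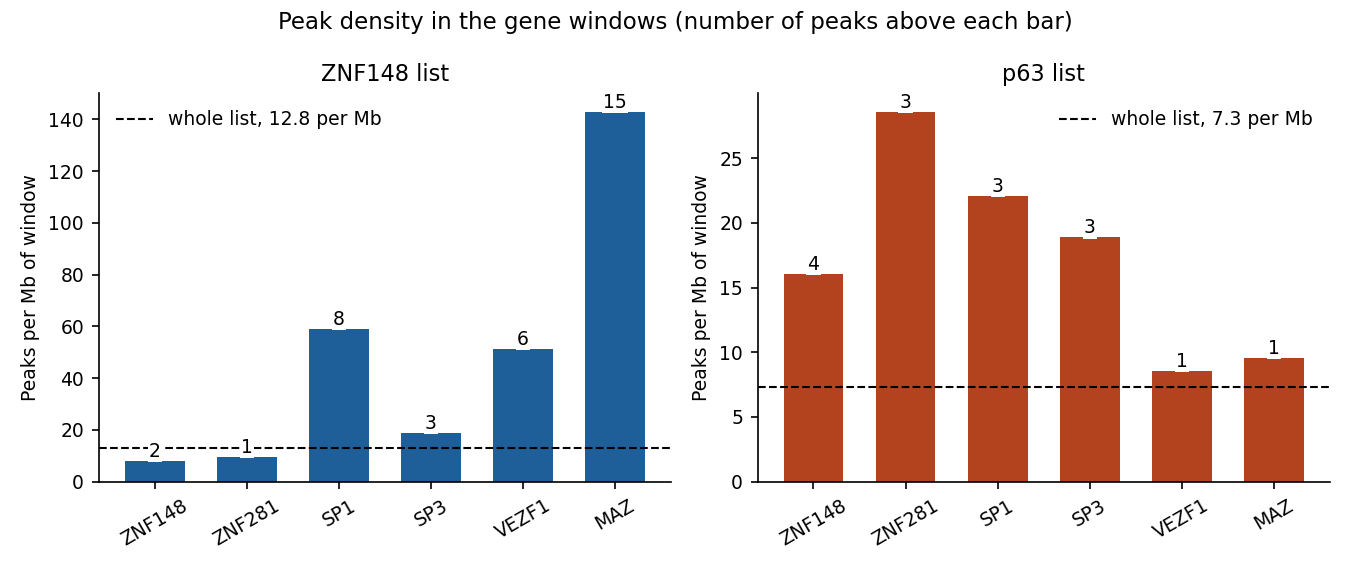
Peaks per Mb of window at each gene in the ZNF148 list (left) and the p63 list (right, another scale), with the number of peaks above each bar and the density of the whole list as a dashed line. MAZ reaches 143 ZNF148 peaks per Mb, while the ZNF148 and ZNF281 windows lie below the ZNF148 line and above the p63 line.

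Across the 6 windows the ZNF148 list had 40.2 peaks per Mb and the whole list 12.8, a ratio of 3.13. The p63 list had 17.2 against 7.30 per Mb, a ratio of 2.36. The first ratio leaned on MAZ: without that gene there were 20 ZNF148 peaks, 26.1 per Mb and a ratio of 2.03. For p63 the same step left 14 peaks, 18.3 per Mb, or 2.50 times the list. Whole-list densities include gene-poor stretches, and windows around other genes were not compared. ZNF148 peaks outnumbered p63 peaks at SP1, VEZF1 and MAZ, p63 peaks outnumbered ZNF148 peaks at ZNF148 and ZNF281, and SP3 had 3 of each. At ZNF148, 2 of the 4 p63 peaks were those inside the gene whose overlap with exons was not tested. ZNF148 and its relative ZNF281 had 2 and 1 ZNF148 peaks in their windows, the same as the median tile of each length, and each had one at its start.

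Every window held at least 1 peak of each list, or 5 of 6 without the weak ZNF148 peak at ZNF281. The same was true of 34.2% of tiles at the length of the ZNF281 and MAZ windows, 37.5% at that of VEZF1, 42.6% at that of SP1, 47.5% at that of SP3 and 63.7% at that of ZNF148. Only 1 of the 15 p63 peaks in the windows was shared with ZNF148, a share of 6.67% with a 95% Wilson interval of 1.19 to 29.8%, against 21.2% of the whole list. In the other direction it was 1 of 35, or 2.86% (0.506 to 14.5%), against 12.1%. Both shares of the whole lists lie inside these intervals, so a difference was not detectable with this few peaks. The intervals cover counting error only and treat the peaks of a window as independent. A ZNF148 summit lay within 10 kb of 6 of the 15 p63 summits, 40% against 47.6% in the whole list. A p63 summit lay this close to 12 of the 35 ZNF148 summits, 34.3% against 35.9%, and without MAZ to 11 of 20, or 55%. Those 11 came largely from 2 windows, 5 at SP1 and 5 at VEZF1, and the 5 at VEZF1 all lay near the same p63 peak. The 6 p63 peaks were the 3 p63 peaks at SP1 and the single ones at VEZF1, MAZ and upstream of ZNF281.

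**Figure D3:**
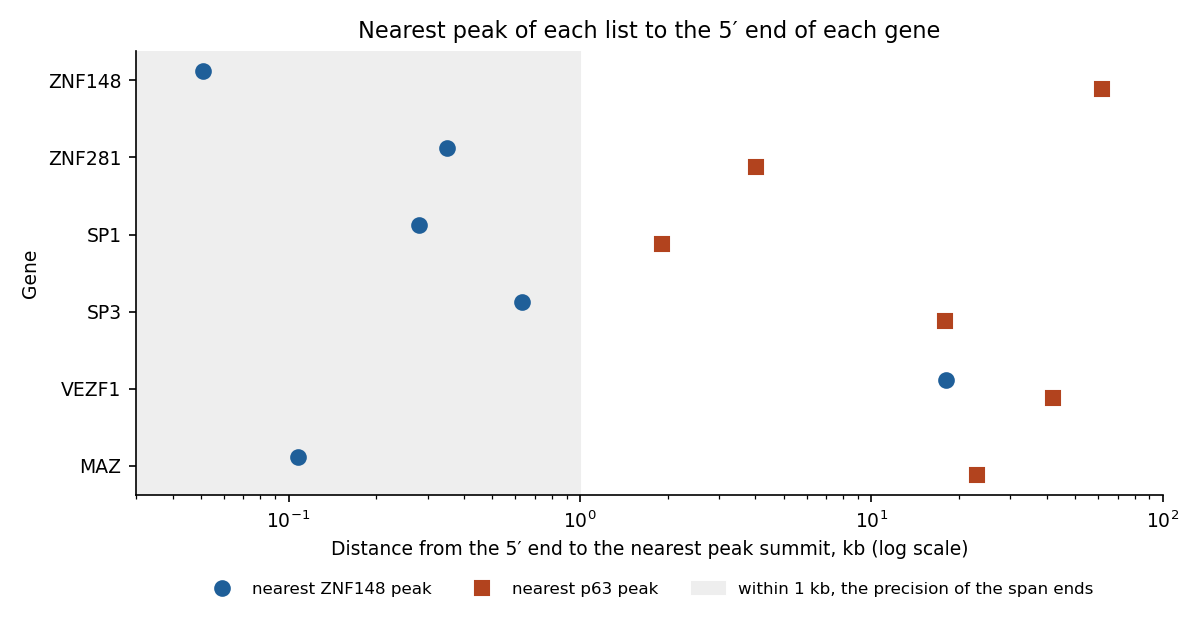
Distance in kb, on a log scale, from the 5′ end of each gene to the nearest peak summit in the ZNF148 list (circles) and the p63 list (squares), with the 1 kb precision of the span ends shaded. ZNF148 was nearer at 6 of 6 genes (5 of 6 without the weak ZNF281 peak), and the p63 distances run from 1.92 to 61.7 kb. The share of all genes where ZNF148 is nearer was not computed. The 61.7 kb, at ZNF148, is to a p63 peak whose overlap with exons was not tested.

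The nearest p63 summit was farther from the 5′ end than the nearest ZNF148 summit at all 6 genes, or at 5 of 6 when the peak at ZNF281 was lost under the stricter q limit or equal list lengths. It lay 1.92 kb away at SP1, 4.02 kb at ZNF281, 17.9 kb at SP3, 23.02 kb at MAZ, 42.0 kb at VEZF1 and 61.7 kb at ZNF148. The 61.7 kb is to one of the 2 p63 peaks inside ZNF148 whose overlap with exons was not tested. Without these 2, the nearest p63 summit at ZNF148 lay 180 kb from the start. Of the 15 p63 peaks, 3 lay inside a gene (2 in ZNF148 and 1 in SP1), 5 upstream and 7 beyond a 3′ end. Of the 35 ZNF148 peaks, 8 lay within 1 kb of a 5′ end, 4 elsewhere inside a gene, 8 upstream and 15 beyond a 3′ end. The 8 at a 5′ end included 3 at MAZ and 2 at SP3. Shares of the whole lists in these positions were not computed, so these counts do not set the windows apart. The share of all genes with a ZNF148 peak at the 5′ end needs an hg19 annotation and was not computed. The same holds for the share of genes where ZNF148 is nearer than p63. Neither the 5 of 6 nor the 6 of 6 genes therefore have a background of that kind, and the ZNF148 list is the longer one.

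ZNF148 peaks in the windows were on the median stronger than their list, and p63 peaks weaker. The 35 ZNF148 peaks had a median fold of 12.6, against 9.83 in the whole list, and 12 of them had a fold of 20 or more, or 34.3% (20.8 to 50.8%) against 19.5%. Without the 15 MAZ peaks the median was 21.8, and 11 of 20, or 55%, had such a fold. A fold of 10 or more was seen in 21 of them, 60% against 49.6%. The 15 p63 peaks had a median fold of 9.48, against 13.2, and 5 of them had a fold of 10 or more, or 33.3% (15.2 to 58.3%) against 65.1%. A fold of 20 or more was seen in 3 of them, 20% against 32.2%. The 5 were 2 of 4 p63 peaks at ZNF148, 2 of 3 at SP3 and the single one at VEZF1, with none at ZNF281, SP1 or MAZ. Those at ZNF148 included the interval with 5 summits, whose overlap with exons was not tested. Of the 12 ZNF148 peaks with a fold of 20 or more, 4 lay at SP1 and 4 at VEZF1. Both intervals treat the peaks of a window as independent, so neither settles a difference from the list. The 8 ZNF148 peaks at the 5′ ends had a median fold of 23.03 and ranged from 6.49 to 47.3, and the other 27 had a median of 11.5 and ranged from 4.38 to 59.2. These ranges overlapped widely. The other 27 included the MAZ peaks away from its start, 3 inside the gene, 2 upstream and 7 downstream, with folds of at most 16.3. Medians of the 2 sets without MAZ were not computed. The most significant ZNF148 peak at a 5′ end had a fold of 47.3 at SP1, 37.5 at MAZ, 32.7 at SP3, 27.9 at ZNF148 and 7.15 at ZNF281. With 1 library, the order of neighbours in this series has no error to be set against.

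**Figure D4:**
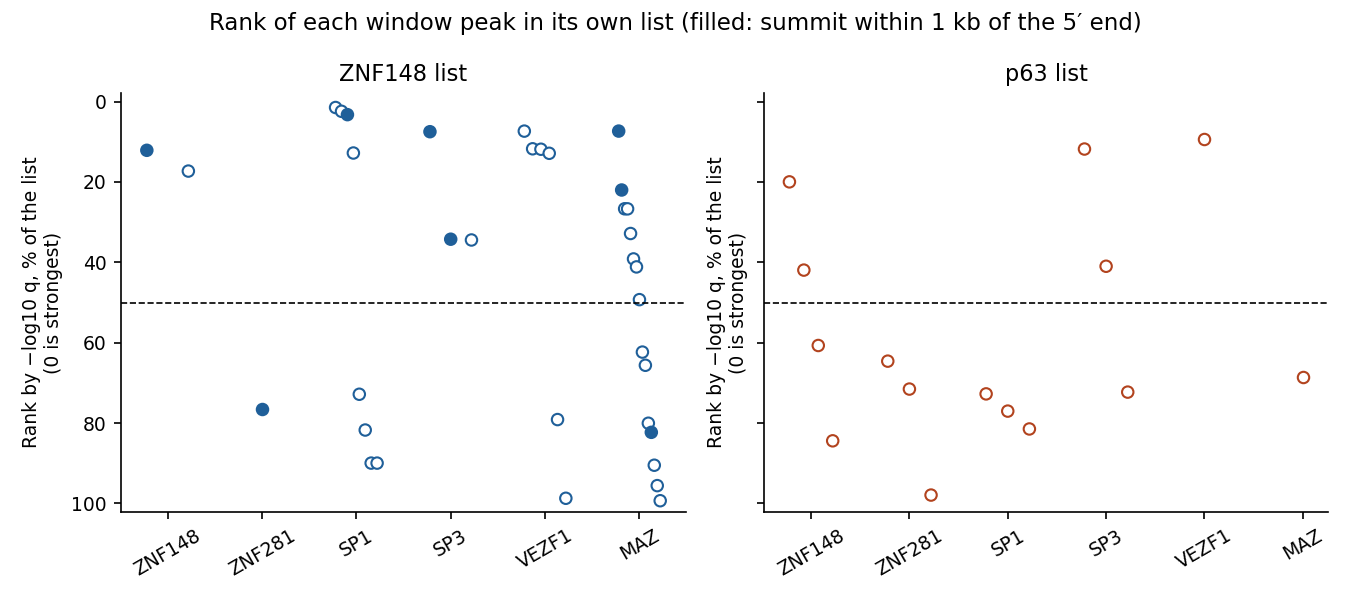
Rank of each window peak by −log10 q as a percentage of its own list, with 0 the strongest and the middle of the list dashed, for the ZNF148 list (left) and the p63 list (right). Filled points lie within 1 kb of a 5′ end. The 3 strongest SP1 peaks are in the top 3.26% of the ZNF148 list, and 1 p63 peak, at VEZF1, is in the top 10% of its own.

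The 50 kb limit left out a few summits of moderate height. Just inside it were 2 ZNF148 summits with a fold of 5.77 each, 42.0 kb beyond the SP1 span and 44.6 kb beyond the MAZ span. Just outside, a ZNF148 summit 50.6 kb beyond SP1 had a fold of 14.2 and a p63 summit 50.7 kb beyond it had a fold of 20.3. These 2 summits were 39 bp apart in overlapping peaks and missed the limit by less than the precision of the span ends. Windows reaching 51 kb, tried after the data were seen, held 2 overlaps, so that 2 of 16 p63 peaks were shared, or 12.5% (3.498 to 36.0%), and 2 of 36 ZNF148 peaks, or 5.56% (1.54 to 18.1%). A pair of p63 summits at 51.5 and 51.9 kb from VEZF1 had folds of 24.7 and 12.8, and a ZNF148 summit at 51.9 kb from MAZ had a fold of 10.0.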

How the data were processed

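ChIP-seq peak lists for ΔNp63α and ZNF148 in FaDu were used, 1 per antibody. Per the submitters' processing notes, the tools were MACS2 2.2.6, Bowtie2 2.3.4.3, MultiQC 1.12, SAMtools 1.7 and FastQC 0.11.9, with build hg19. For the control, duplicate handling and read filters, nothing is stated in the sources used here. Of the values the authors deposited for each peak, fold enrichment is a ratio over local background, and significance is given as −log10 p and as −log10 q, which ranked peaks within their list.

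Peaks on chromosomes 1 to 22 and X were kept. Rows sharing start and end were merged, keeping the summit with the best q. Overlap meant at least 1 bp in common. Tiles were consecutive stretches as long as a window, laid from the first peak of a chromosome. Promoters came from RefSeq (GRCh38.p14), 1 per gene at its most upstream start. Peak positions are 1-based hg19. No test was run. For each gene and list, the most significant peak, the one nearest the 5′ end and every overlapping peak were named by rule, and further peaks are described beside them. A planned comparison of zinc fingers was not run, since protein sequences were not used here. Genes, lists and tests were chosen with earlier results of these data known. Functions were tested on simulated lists. Alternatives were limits on q and fold, counting all summits, equal list lengths, other overlap criteria and windows of 10 or 51 kb. Python 3.11.15, numpy 2.4.6, pandas 2.3.3, scipy 1.17.1 and matplotlib 3.10.9 were used.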

Additional observations from a re-analysis of the deposited data

How the results depend on the processing

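Of the 29 recomputed values, 24 stayed within the limits set for them (1.5 times for counts, the counting interval for shares) and 5 moved. The shares rest on 1 overlapping peak and their limits are wide. The p63 share of 6.67% became 20% with windows of 10 kb and still counted as within them. Equal list lengths shortened only the ZNF148 list, and no p63 peak in the windows had a fold below 5.35. The p63 count therefore could not change under equal lengths or a fold of at least 5. Of the 29, 5 came from alternatives added after the data were seen. The 35 ZNF148 peaks became 22 with a −log10 q of at least 10, 21 with lists of equal length and 19 with windows of 10 kb, and the 15 p63 peaks became 5 with windows of 10 kb, which hold fewer peaks by construction. The overlap upstream of SP1 was counted under every alternative run, and windows of 51 kb added another, making 2. Genes with a ZNF148 peak at the 5′ end numbered 4 to 5, ZNF281 being lost under the stricter q limit and with lists of equal length. No replicate could be left out and no paired analysis was possible because each antibody has 1 list and no test was made. Read depth is unknown, so peaks too weak for the lists cannot be told from absent binding.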
